A study of Homo sapiens with 6 samples.

Results

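The RAB small GTPases were followed here in MCF10A cells with ErbB2, an established human mammary epithelial line, grown for 7 days as 3-D cultures in a reconstituted membrane. Members were the genes whose symbol is RAB followed by a number and at most 1 letter, read from array probe sets that name exactly 1 gene. That gave 60 member genes, read by 63 probe sets, of 18417 genes measured. For the 3 members with more than 1 probe set, the one with the highest mean over the 6 arrays was used. RAB34, RAB4B, RAB6C and RAB6D lie only on probe sets that name several genes and were not used. RAB1C is listed as a pseudogene in RefSeq and is close in sequence to other RAB1 genes, and RAB40A has a near-identical copy on the same chromosome, so the signals of both are uncertain.

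The study has 3 arrays labelled RB-proficient (tagged miNS in the titles) and 3 labelled RB-deficient (tagged miRB), and the labels do not spell out these tags. RB is the retinoblastoma protein, which holds back E2F transcription factors. Both groups were MCF10A cells with ErbB2, a receptor tyrosine kinase, in medium with horse serum, insulin, cholera toxin and hydrocortisone, and both were lysed together with the matrix. Separate cultures are not stated for the replicates. The p-values therefore reflect only the spread among these arrays, which may be technical.

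A RAB protein is a molecular switch. It sits on a membrane when bound to GTP, recruits effectors such as tethers and motors there, and is drawn off by a chaperone when bound to GDP. Each organelle carries its own set of RABs, so the family reads as a map of membrane traffic. In epithelial cells RAB25, RAB17 and the RAB11 proteins serve recycling endosomes that return cargo, integrins among it, to the surface, and RAB3D and the RAB27 proteins act in regulated secretion.

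The arrays of the groups were unlike in ways that touch every result. Pairs of RB-proficient arrays had correlations of 0.90 to 0.92 and pairs labelled RB-deficient 0.67 to 0.75, taken over genes, which share their array. RB1, the gene for RB, was lower by a log2 difference of −1.95 (SE 0.76, adjusted p 0.302) with overlapping groups, and the directions below follow the labels. Of 10 mammary epithelial markers 7 were measured, and 6 of these had the lower mean in RB-deficient arrays. The other, EPCAM, was higher by 0.24 (SE 0.46) without overlap. The summed log2 level of the 7 was 57.7 to 61.4 in RB-proficient arrays and 47.7 to 51.4 in the others. Of them 0 were at the floor. The reference genes ACTB and GAPDH differed by −1.92 and −1.23, and ERBB2, the gene of the receptor that both groups carry, by −1.31 (SE 0.48, adjusted p 0.288) without overlap. The part of these shifts in the RAB results was not tested, and fewer cells of a type cannot be told apart from less RNA per cell in such bulk samples. Summed levels of 7 fibroblast markers ran from 29.2 to 31.4 in RB-proficient arrays and from 27.1 to 30.9 in the others, 5 endothelial markers from 21.9 to 24.3 and from 21.0 to 21.8, and 4 leukocyte markers from 16.6 to 18.1 and from 17.5 to 18.3.

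Levels are log2 intensities of a member's probe set after scaling of every array to 1 shared median, with values under 1 set to 1, so that 0 is the floor. Differences are the RB-deficient mean minus the RB-proficient mean on that scale, with n = 3 per group, and p-values come from limma fitted over all genes. Probe sets differ in how well they bind, so levels are not compared between genes.

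The promoters of RAB25, RAB11A, RAB11B and RAB5C are shown first because the results below turn on how RAB25, RAB11B and RAB5C differ from their relatives, RAB11A among them. Each line gives the 120 bases just before the start of transcription, 5′ to 3′ in the direction of the gene, from RefSeq on GRCh38.p14. Capitals mark GC boxes (GGGCGG, bound by SP1-type factors) and CCAAT boxes (CCAAT) on either strand. The windows are chr1:156061040-156061159 (plus strand) for RAB25, chr15:65869371-65869490 (plus strand) for RAB11A, chr19:8390240-8390359 (plus strand) for RAB11B and chr17:42154990-42155109 (minus strand) for RAB5C.
RAB25: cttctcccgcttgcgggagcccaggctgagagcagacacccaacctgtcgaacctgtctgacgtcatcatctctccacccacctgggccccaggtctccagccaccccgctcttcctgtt
RAB11A: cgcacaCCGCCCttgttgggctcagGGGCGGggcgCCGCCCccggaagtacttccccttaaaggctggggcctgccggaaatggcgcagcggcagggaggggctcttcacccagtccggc
RAB11B: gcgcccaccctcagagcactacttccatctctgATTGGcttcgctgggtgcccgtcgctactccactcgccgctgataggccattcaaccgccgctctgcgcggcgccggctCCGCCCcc
RAB5C: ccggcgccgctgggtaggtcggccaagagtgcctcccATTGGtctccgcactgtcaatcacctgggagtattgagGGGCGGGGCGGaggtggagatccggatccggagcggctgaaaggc

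The RAB25 window held neither box and 5 CpG pairs, against 10 in RAB11A, 13 in RAB11B and 10 in RAB5C. In the full 250 bases before the start, RAB25 had 8 CpG pairs. The median was 21 for the 46 members with a RefSeq promoter and 18 for all 14239 promoters of genes on the array. RAB25 was not the only such member: RAB29 (9 CpG pairs), RAB17 (6) and RAB7B (4) also held neither box in these bases. RAB3C (21) and RAB6A (32) held neither box but had more CpG pairs. A GC box lay in 37 of the 46 RAB promoters (80.4%) and in 57.5% of all promoters, and a CCAAT box in 12 (26.1%) and in 34.4%. The E2F letters TTTCCCGC, TTTGGCGC, TTTCGCGC or TTTGCCGC, on either strand, were in 0 of the 46 RAB promoters and in 3.75% of all promoters. None of these motifs contains another. The E-box CACGTG was in 5 of 46 (10.9%) and in 7.86% of all. Grainyhead-type letters, AACCNGTT on either strand, were in 0 RAB promoters and in 1.24% of all. The letters searched are a description of these windows only.

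Most RAB genes had lower levels in arrays labelled RB-deficient, and none passed the adjusted threshold of 0.05. A difference below 0 was seen in 50 of 60 members (83.3%), against 58.6% of all genes, and the median difference was −0.53 against −0.21 over all genes. At an unadjusted p under 0.05, 9 members were lower (15.0%, against 10.8% of all genes) and 0 were higher (2.85% of all genes). Groups were fully separated, with no overlap, for 11 members that were lower (18.3%, against 15.3% of all genes) and for 2 that were higher, where 7.12% of all genes were. At the adjusted threshold the share of all genes called was 0.00543%. The excess over all genes thus lay in the direction of small differences more than in the number of separated members.

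These counts, each out of 60 members, moved with single arrays. Without the array labelled RB-deficient 1, 14 of 60 members were lower at an unadjusted p under 0.05, where 11.9% of all genes were. Lower without overlap were 24 of 60, where 24.4% of all genes were. The latter count was 17 without RB-proficient array 2 (20.5% of all genes) and 20 without the array labelled RB-deficient 3 (26.3% of all genes). Members that were higher without overlap numbered 4 without RB-proficient array 1 (9.7% of all genes) and 4 without the array labelled RB-deficient 3 (15.5% of all genes). The share of all genes was also higher in each of these settings than with all arrays. Leaving out other arrays lowered a count. Members lower at an unadjusted p under 0.05 numbered 6 without RB-proficient array 2 (7.2% of all genes) and 6 without RB-proficient array 3 (5.34%). They also numbered 6 without the array labelled RB-deficient 2 (9.39%). With only the third RB-deficient array kept, 8 members were lower at an unadjusted p under 0.05 (9.12% of all genes) and 1 was higher (3.5% of all genes).

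**Figure D1:**
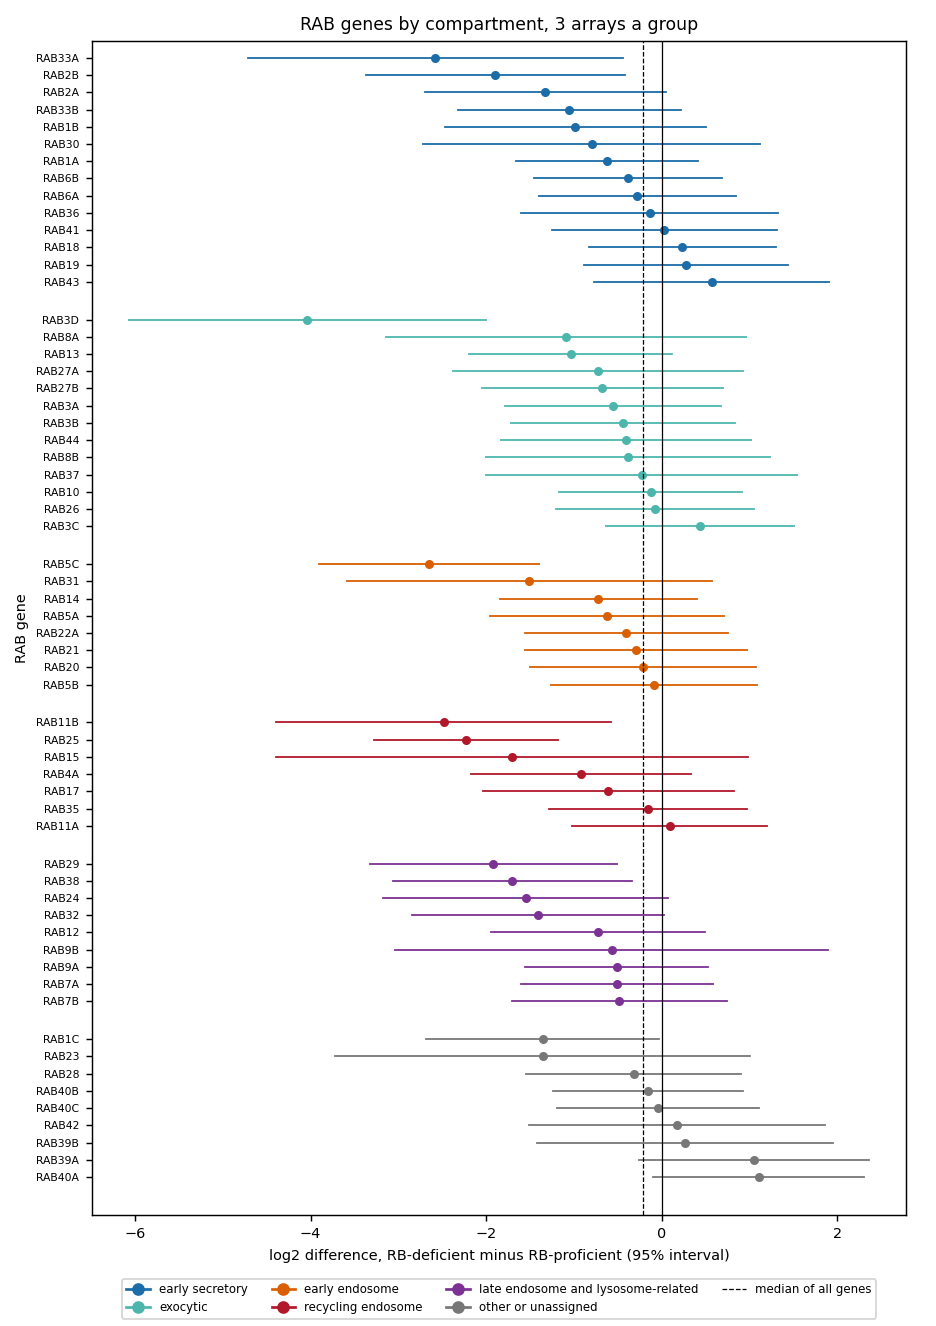
Log2 difference of each of the 60 RAB genes (arrays labelled RB-deficient minus RB-proficient, n = 3 per group), grouped by compartment. Points are limma estimates and bars their 95% intervals, the solid line is 0 and the dashed line the median of all genes at −0.21. RAB3D, RAB5C, RAB25 and RAB11B lie at the low end of their groups, and the late endosome and early endosome members all lie below 0.

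Members were mostly lower among bright and dim probe sets alike. Of the 24 members with a mean log2 level of at least 6, 22 were lower (91.7%, against 70.3% of genes that bright), and of the 36 dimmer ones 28 were lower (77.8%, against 54.0%). Brightness did go with the spread: the median SD of a member in the arrays labelled RB-deficient was 0.52 in the brighter class and 1.05 in the dimmer one. Of the 9 members lower at an unadjusted p under 0.05, 1 was in the brighter class (4.17% of its members, against 9.49% of genes that bright) and 8 were in the dimmer one (22.2%, against 11.4%). The bright one is RAB25. The limit of 6 was chosen after the values were seen.

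Recycling endosome members ranged from RAB11B at −2.49 to RAB11A at 0.09. Of 7 measured, 6 were lower and the group median was −0.92. Of the 7, RAB25 and RAB11B (28.6%) were lower at an unadjusted p under 0.05 and without overlap, against 10.8% and 15.3% of all genes. RAB25, the epithelial relative of RAB11 that moves integrins back to the surface, had log2 levels of 8.01, 8.30 and 8.55 in RB-proficient arrays 1 to 3, against 6.19, 5.89 and 6.10 in arrays 1 to 3 labelled RB-deficient. Levels below follow the same order. All 3 lay far below the lowest RB-proficient array, and none was near the floor. The difference of −2.23 (SE 0.47, 95% interval −3.28 to −1.18, 4.69-fold lower) reached an adjusted p of 0.206 with limma. Of the 9 members at an unadjusted p under 0.05, RAB25 had the smallest SD in the arrays labelled RB-deficient, 0.15, and with single arrays left out its difference ran from −2.37 to −2.10. It passed the adjusted threshold with an offset of 16 in place of the floor (adjusted p 0.0248, 1.05% of all genes called), with limma's trend and robust options (adjusted p 0.0422, 0.331% called) and with a floor of 16 (adjusted p 0.0415, 0.315% called). It did not pass in the other 14 settings run.

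RAB11A, the ubiquitous recycling RAB, had levels of 9.92, 9.09 and 9.79 in RB-proficient cells and of 10.05, 9.56 and 9.47 in the others. These ranges overlapped almost wholly, and the difference was 0.09 (SE 0.50, 95% interval −1.02 to 1.2). RAB11B, its close paralog with roles in recycling and secretion, had levels of 4.21, 5.26 and 3.86 in RB-proficient cells and of 0, 3.47 and 2.40 in the others. The groups did not overlap, but the array labelled RB-deficient 1 was at the floor. The RAB11B difference was −2.49 (SE 0.85, adjusted p 0.274), and it was −1.51 without that array.

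The other recycling members had smaller differences than RAB25 and RAB11B, and their groups overlapped. RAB4A, which drives fast return from early endosomes, had levels of 6.52, 7.37 and 6.16 and of 5.17, 5.72 and 6.40, with overlap in the third RB-deficient array and a difference of −0.92 (SE 0.56). RAB15, which delays recycling, had levels of 5.40, 5.52 and 4.04 and of 0, 4.77 and 5.07. Its difference of −1.71 (SE 1.2) came from 1 array at the floor and was −0.07 without it. RAB17, an epithelial RAB of apical recycling, and RAB35, which acts on cadherin and integrin return, differed by −0.61 (SE 0.64) and −0.16 (SE 0.50).

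**Figure D2:**
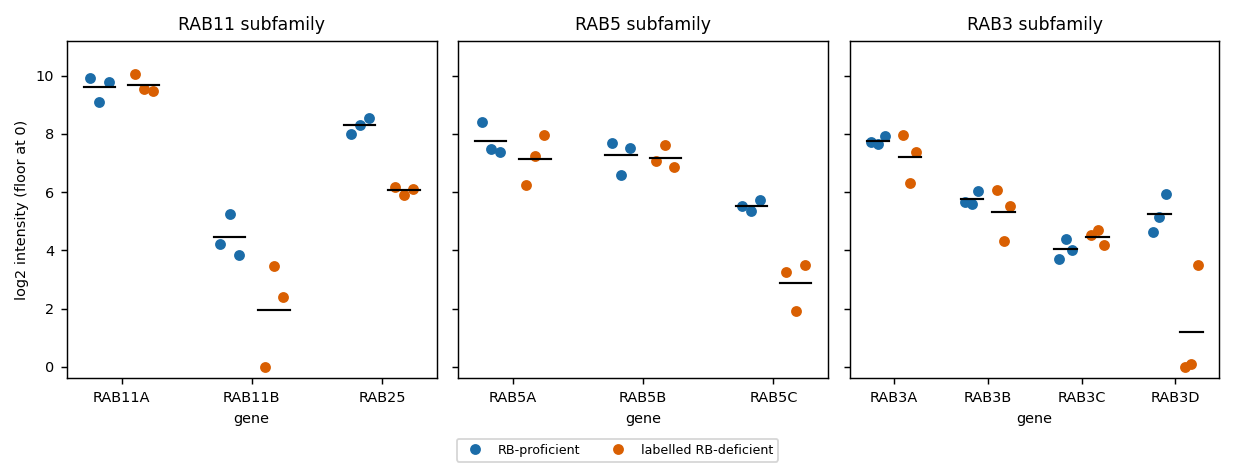
Log2 intensity of the RAB11, RAB5 and RAB3 subfamily members in each array (3 RB-proficient in blue, 3 labelled RB-deficient in orange), with group means as lines and the floor at 0. RAB25, RAB11B, RAB5C and RAB3D separate the groups, and their relatives RAB11A, RAB5A, RAB5B, RAB3A, RAB3B and RAB3C do not.

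Early endosome members were all lower, 8 of 8, with a median of −0.51, yet only RAB5C stood out. RAB5C, one of the RAB5 proteins that govern fusion of incoming vesicles, had levels of 5.52, 5.34 and 5.74 in RB-proficient cells and of 3.24, 1.91 and 3.49 in the others. The groups lay well apart, the RB-deficient values being dim. The RAB5C difference of −2.65 (SE 0.56, 95% interval −3.90 to −1.40, 6.28-fold lower) had an adjusted p of 0.206. It passed only with a floor of 16 (adjusted p 0.0415), where all 3 arrays labelled RB-deficient sat at that floor and had no spread. With the offset of 16 the difference was −1.38 and the adjusted p 0.0538.

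RAB5A, the best studied of the RAB5 proteins, had levels of 8.41, 7.49 and 7.39 and of 6.24, 7.24 and 7.95. The groups overlapped and the difference was −0.62 (SE 0.59). RAB5B had levels of 7.69, 6.60 and 7.50 and of 7.07, 7.62 and 6.86, a difference of −0.08 (SE 0.52, 95% interval −1.26 to 1.09) whose sign changed in 5 of 17 settings. RAB14, which links early endosomes and the Golgi, differed by −0.72 (SE 0.50), with levels of 8.12, 7.86 and 8.33 and of 7.01, 7.17 and 7.97, so that only the third RB-deficient array reached the RB-proficient range. RAB31, a carrier RAB between the Golgi and endosomes, had levels of 4.04, 3.76 and 4.15 and of 3.51, 0 and 3.91. Its difference of −1.51 (SE 0.93) was −0.27 without the array labelled RB-deficient 2. RAB22A, RAB21 and RAB20, of early endosome sorting, integrin uptake and phagosome maturation, differed by −0.40, −0.29 and −0.21.

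Late endosome and lysosome-related members were lower in 9 of 9, with a median of −0.72. In this group 4 members were lower without overlap (44.4%, against 15.3% of all genes): RAB29, RAB38, RAB9A and RAB7A. RAB29, a RAB of the Golgi and stressed lysosomes known as a partner of LRRK2, had levels of 4.83, 4.85 and 4.03 and of 1.43, 3.16 and 3.36, a difference of −1.92 (SE 0.63, adjusted p 0.259). RAB38, which acts in lysosome-related organelles, had levels of 6.62, 5.56 and 7.05 and of 5.12, 3.83 and 5.17. Both separated the groups, and RAB38 did so by little, since RB-proficient array 2 was close to 2 of the others. The RAB38 difference was −1.70 (SE 0.61, adjusted p 0.282).

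RAB32, the closest relative of RAB38, had levels of 5.20, 5.91 and 7.23 and of 5.36, 4.11 and 4.64, a difference of −1.41 (SE 0.64) with overlap by 1 array. RAB24, linked to autophagy, had levels of 4.20, 4.29 and 6.14 and of 2.28, 3.34 and 4.35, a difference of −1.55 (SE 0.72) that also overlapped. RAB7A, the main RAB of late endosomes and of their fusion with lysosomes, had levels of 9.49, 9.54 and 9.79 and of 9.32, 8.56 and 9.41. Every RB-deficient value was lower, by little in arrays 1 and 3 and by more in array 2. The RAB7A difference was −0.51 (SE 0.49, adjusted p 0.665). It was −0.24 without the array labelled RB-deficient 2 and −0.83 with the mean of its probe sets. RAB9A, which returns receptors from late endosomes to the Golgi, had a similar small shift of −0.51 (SE 0.46), with an SD of 0.06 in the arrays labelled RB-deficient. RAB12, RAB7B and RAB9B differed by −0.72, −0.48 and −0.57, and RAB9B spread from 0.31 to 5.48 in the arrays labelled RB-deficient.

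Early secretory members, which work between the endoplasmic reticulum and the Golgi, were mixed: 10 of 14 were lower and the median was −0.50. RAB2B, a Golgi RAB, had levels of 6.48, 6.79 and 6.56 and of 3.54, 4.54 and 6.06. The groups did not overlap, but the third RB-deficient array lay close to the RB-proficient ones. The difference was −1.90 (SE 0.66, adjusted p 0.277), and −0.55 with that array alone. Its paralog RAB2A had levels of 8.30, 7.82 and 7.89 and of 5.71, 6.49 and 7.84, a difference of −1.33 (SE 0.61) with the same order of arrays and an overlap only in the third. RAB33A and RAB33B, Golgi RABs that bind the autophagy protein ATG16L1, differed by −2.58 (SE 0.95, adjusted p 0.288) and −1.06 (SE 0.57). RAB33A had levels of 3.59, 3.78 and 4.37 and of 3.87, 0 and 0.13, and with a floor of 16 its difference was −0.12. RAB33B had levels of 5.50, 5.11 and 5.40 and of 5.15, 3.38 and 4.31, with overlap by 1 array.

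RAB1A, required for transport from the endoplasmic reticulum to the Golgi, had levels of 10.74, 10.69 and 10.90 and of 10.22, 9.89 and 10.34. It separated the groups by a small margin (difference −0.62, SE 0.46, adjusted p 0.572). RAB1B, its paralog, differed by −0.98 (SE 0.66) with overlap. RAB6A, a RAB of traffic within and from the Golgi, had levels of 7.59, 7.47 and 7.89 and of 7.47, 6.80 and 7.83, a difference of −0.28 (SE 0.50). RAB18, of lipid droplets and the endoplasmic reticulum, RAB19, RAB41 and RAB43 were the 4 members with positive differences, from 0.03 to 0.57. The remaining RAB30, RAB6B and RAB36 differed by −0.79, −0.38 and −0.14.

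Exocytic members, which carry vesicles to the surface, were lower in 12 of 13, but by little, with a median of −0.44. RAB3D, the RAB3 protein of secretory granules in exocrine and other non-neuronal cells, had levels of 4.62, 5.16 and 5.93 and of 0, 0.10 and 3.50. It gave the largest difference of any RAB gene measured, −4.04 (SE 0.91, 95% interval −6.07 to −2.0, adjusted p 0.206). Its size depends on the floor and on which arrays are kept: it was −1.24 with a floor of 16, −1.47 with the offset of 16 (adjusted p 0.0617), and −1.73 with only the third RB-deficient array. RAB13, which acts in tight junction assembly, had levels of 7.73, 8.14 and 8.64 and of 6.68, 7.11 and 7.61, a small gap without overlap (difference −1.04, SE 0.51, adjusted p 0.404).

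RAB27A and RAB27B, of granule docking and exosome release, both overlapped. RAB27A had levels of 4.60, 5.16 and 5.72 and of 6.11, 3.56 and 3.64, so the array labelled RB-deficient 1 was the highest of all 6. RAB27B had levels of 7.86, 6.49 and 6.92 and of 5.51, 6.55 and 7.18, with the same array the lowest. The differences were −0.72 (SE 0.74) and −0.68 (SE 0.61). RAB8A, a RAB of apical transport, had levels of 6.80, 4.88 and 7.77 and of 6.57, 3.68 and 5.92, a spread within each group larger than the difference of −1.09 (SE 0.91). RAB3C, a neuronal RAB3, was the 1 exocytic member with a positive difference, 0.44 (SE 0.48). The other 7, among them RAB10 at −0.12 and RAB26 at −0.07, lay between −0.55 and −0.07. RAB44, also among them, was at −0.41, but at 0.38 with the mean of its probe sets.

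**Figure D3:**
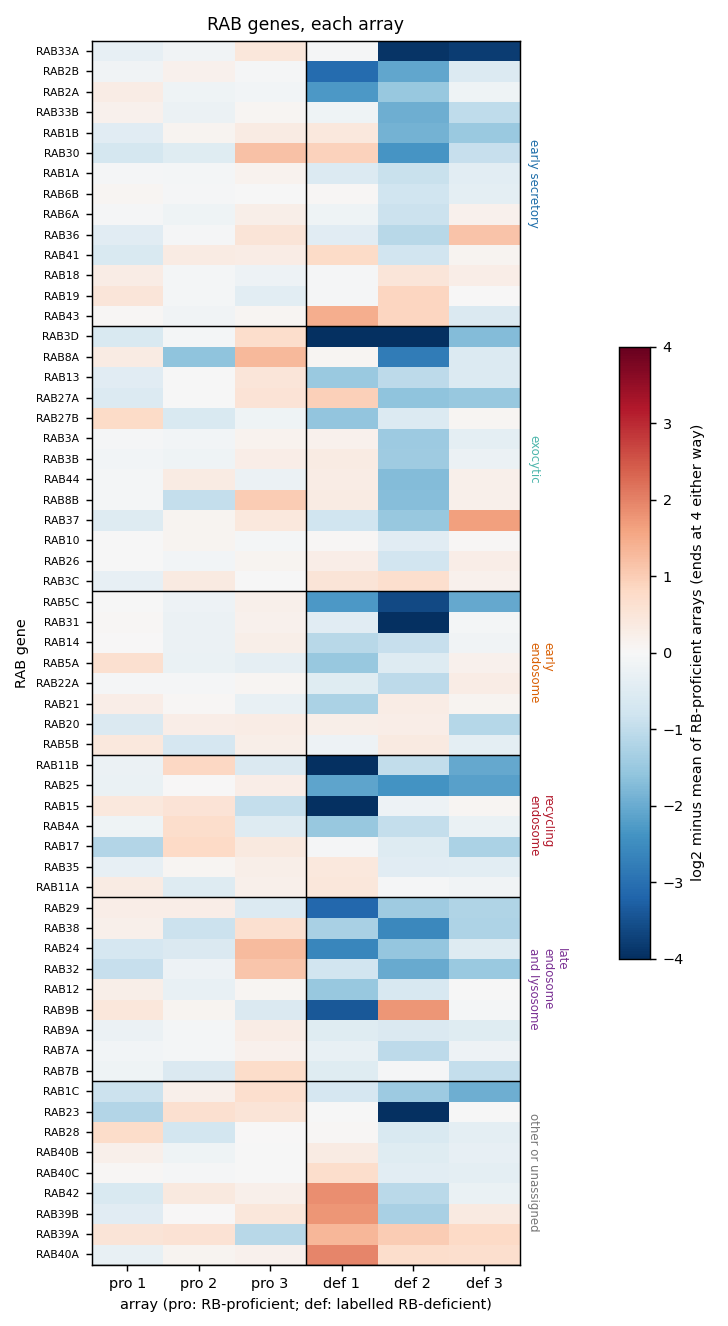
Each row is a RAB gene and each column an array, coloured by log2 level minus the mean of the 3 RB-proficient arrays, with groups of compartments divided by lines and the colour scale ending at 4 in either direction. The arrays labelled RB-deficient differ among themselves: by median, exocytic genes are low mainly in array 2 and recycling genes mainly in array 1. Early and late endosome genes are lower in both of these than in array 3.

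The compartments were low in different arrays. Medians of the exocytic members in the arrays labelled RB-deficient 1, 2 and 3, each set against the RB-proficient mean, were 0.17, −1.45 and 0.05. Those of the early secretory members were −0.05, −1.0 and −0.41. Without the array labelled RB-deficient 2 the exocytic median was 0.04 and the early secretory one −0.09, so the low exocytic median rested on that array, while the early secretory median was still −0.41 in array 3 alone. Recycling medians were −1.52, −0.52 and −0.42, late endosome medians −1.29, −1.04 and −0.52, and early endosome medians −0.79, −0.73 and −0.10. The median of all genes was −0.14, −0.37 and −0.14 in the same arrays, so the recycling and late endosome medians lay below it in every array and the early endosome median did not in array 3. With single arrays left out, the recycling and late endosome medians ran from −1.24 to −0.58 and from −1.12 to −0.62. The compartment medians were not tested against each other.

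Counted by array, the second of these was the lowest. In the array labelled RB-deficient 2, 44 of 60 members (73.3%) lay below the lowest RB-proficient value, where 48.0% of all genes did. In arrays 1 and 3 the shares were 40% and 46.7%, against 42.1% and 37.6% of all genes. Members above the RB-proficient range made up 26.7%, 13.3% and 10.0%, against 35.2%, 30.4% and 25.5% of all genes. In the array labelled RB-deficient 1, the RAB family was thus close to all genes below the range, and in the other 2 it was shifted further down.

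Of 9 members with another or no assigned compartment, 5 were lower and the median was −0.04, which was above 0 with quantile normalization, with centring, and without the array labelled RB-deficient 2 or 3. RAB40A and RAB39A were the only members with higher values without overlap. RAB40A, of a subfamily that recruits ubiquitin ligases, had levels of 3.04, 3.45 and 3.51 and of 5.28, 4.03 and 4.01, a difference of 1.11 (SE 0.54, adjusted p 0.396). RAB39A, linked to phagosomes, had levels of 4.55, 4.62 and 2.93 and of 5.37, 5.05 and 4.83, a difference of 1.05 (SE 0.58, adjusted p 0.456). Both were dim. RAB23, a brake on Hedgehog signalling in cilia, had levels of 3.64, 5.47 and 5.34 and of 4.79, 0.78 and 4.82, and its difference of −1.36 (SE 1.05) was −0.01 without the array labelled RB-deficient 2. RAB1C had levels of 3.57, 4.63 and 5.09 and of 3.77, 2.98 and 2.47 (difference −1.36, SE 0.59), with overlap. RAB40B, RAB40C, RAB28, RAB42 and RAB39B lay between −0.32 and 0.27.

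Whether relatives moved unequally was asked within each array, by the log2 ratio of the 2 signals, which removes whatever scales an array as a whole. Such a ratio compares changes, not amounts. Over 15 subfamilies there were 26 pairs, and in 9 of them the ratio separated the groups. Several of these pairs share a gene, so they are not independent. The share over other pairs of genes was not computed, so the count alone does not set RAB relatives apart. The ratio of RAB25 to RAB11A was −1.91, −0.79 and −1.24 in RB-proficient cells, against −3.86, −3.67 and −3.37 in the others, a shift of −2.32. That of RAB11B to RAB11A shifted by −2.58, and that of RAB25 to RAB11B by 0.26, with overlap. The ratio of RAB5C shifted by −2.03 against RAB5A and by −2.57 against RAB5B, and that of RAB3D by −3.48, −3.60 and −4.48 against RAB3A, RAB3B and RAB3C. The sizes for RAB3D and RAB11B depend on the floor of 0, which RAB3D met or nearly met in 2 arrays labelled RB-deficient and RAB11B in 1. The other 2 separated ratios were those of RAB40B and RAB40C to RAB40A, at −1.26 and −1.15. A two-sided exact permutation test gave each of the 9 pairs p = 0.1, the smallest that 3 arrays against 3 allow, and an adjusted p of 0.289 over the 26 pairs, so none could pass. In the 17 pairs that overlapped, the shifts ran from −1.10 for RAB31 to RAB22A to 1.52 for RAB33B to RAB33A, the latter with RAB33A at or near the floor in 2 arrays. Between these lay RAB3C to RAB3A at 0.99, RAB3C to RAB3B at 0.88, RAB39B to RAB39A at −0.78 and RAB8B to RAB8A at 0.71. Smaller shifts included RAB2B to RAB2A at −0.57, RAB38 to RAB32 at −0.29 and RAB6B to RAB6A at −0.10.

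The genes that load, switch and read RAB proteins were lower as well. Of 134 listed regulators and effectors 126 were measured, 99 were lower (78.6%, against 58.6% of all genes) and the median difference was −0.91. At an unadjusted p under 0.05, 30 were lower (23.8%, against 10.8% of all genes) and 0 were higher, and 29 were lower without overlap (23.0%, against 15.3%). Higher without overlap were 6, where the share of all genes is 7.12%. None passed the adjusted threshold. The counts that follow are out of 126, and the percentages beside them are of all genes. The count of 30 was 51 without the array labelled RB-deficient 3 (15.8% of all genes), 15 without RB-proficient array 3 (5.34%) and 19 without each of RB-proficient array 2 (7.2%) and the arrays labelled RB-deficient 1 (11.9%) and 2 (9.39%). With only the third RB-deficient array it was 8 (9.12%), and the median was −0.21. The 29 were 49 without RB-proficient array 2 (20.5% of all genes) and 63 without the array labelled RB-deficient 3 (26.3%), and the 6 were 14 without the array labelled RB-deficient 2 (12.6%).

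Effectors of late endosome RABs and the HOPS tether, which RAB7A recruits for fusion with lysosomes, had the lowest median of these lists, −1.47, with 8 of 9 lower. VPS18, a core HOPS subunit, had levels of 5.49, 6.65 and 6.74 and of 2.95, 3.73 and 4.62, a difference of −2.52 (SE 0.61, adjusted p 0.209). VPS33A and VPS11, of the same complex, differed by −2.64 (SE 0.83) and −3.19 (SE 1.17), both without overlap, and VPS11 reached the floor in 1 array. With only the third RB-deficient array these 3 were at −1.67, −0.80 and −0.85.

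Exocytic effectors and the exocyst, the complex that tethers vesicles at the surface, were lower in 17 of 19 (median −1.12). EXOC7, the exocyst subunit that binds membrane lipids, had levels of 6.43, 6.48 and 6.05 and of 2.92, 4.56 and 4.11, a wide gap (difference −2.46, SE 0.56, adjusted p 0.206). Under the offset of 16, VPS18 reached an adjusted p of 0.0492 and EXOC7 one of 0.0419, both past the threshold. EXOC3 and EXOC2 of the same complex differed by −1.52 (SE 0.60) and −1.99 (SE 0.79), and EXOC2 overlapped.

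Recycling effectors had a smaller shift, with 5 of 9 lower and a median of −0.45, and 0 members separated the groups. RAB11FIP4 and RAB11FIP1, which bind RAB11 proteins and, for the latter, RAB25, differed by −2.31 (SE 0.77) and −1.55 (SE 0.70). Both overlapped in the third RB-deficient array. EHD1, which shapes recycling tubules, differed by −0.90 (SE 0.55). Early endosome effectors were lower in 5 of 7 (median −0.69), led by RBSN, a RAB5 and RAB4 effector, at −2.66 (SE 0.81, without overlap), with VPS45 at −1.06 and APPL2 at −1.87. Golgi tethers were lower in 5 of 6 (median −0.79), with GOLGA2, a tether of the cis-Golgi that binds RAB1, at −1.83 (SE 0.57), GOLGA5 at −1.19 and BICD1, a RAB6 adaptor for dynein, at −1.64.

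Among the exchange factors that switch RABs on, 28 of 41 were lower (median −0.59), and both directions held separated genes, 10 lower (24.4%, against 15.3% of all genes) and 5 higher (12.2%, against 7.12%). RGP1, a subunit of the RAB6 exchange factor, had levels of 5.73, 5.73 and 6.13 and of 4.18, 2.86 and 4.28 (difference −2.09, SE 0.55, adjusted p 0.213) and passed with a floor of 16 (adjusted p 0.0464). TRAPPC12 and TRAPPC3, of the TRAPP complexes that activate RAB1, differed by −2.38 (SE 0.67) and −1.77 (SE 0.51). The GTPase-activating proteins that switch RABs off were lower in 25 of 29 (median −0.90), with RAB3GAP2 at −1.83 (SE 0.57), TBC1D5, which acts on RAB7, at −1.93 (SE 0.74) and TBC1D9B at −1.54 (SE 0.59). All 6 measured genes of prenylation, escort and chaperoning were lower (median −0.94). RABAC1, a prenylated RAB acceptor, differed by −1.38 (SE 0.60) without overlap, and RABIF, which binds RABs free of nucleotide, and RABGGTA, a subunit of the enzyme that attaches the lipid, by −1.41 (SE 0.93) and −0.98 (SE 0.67).

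**Figure D4:**
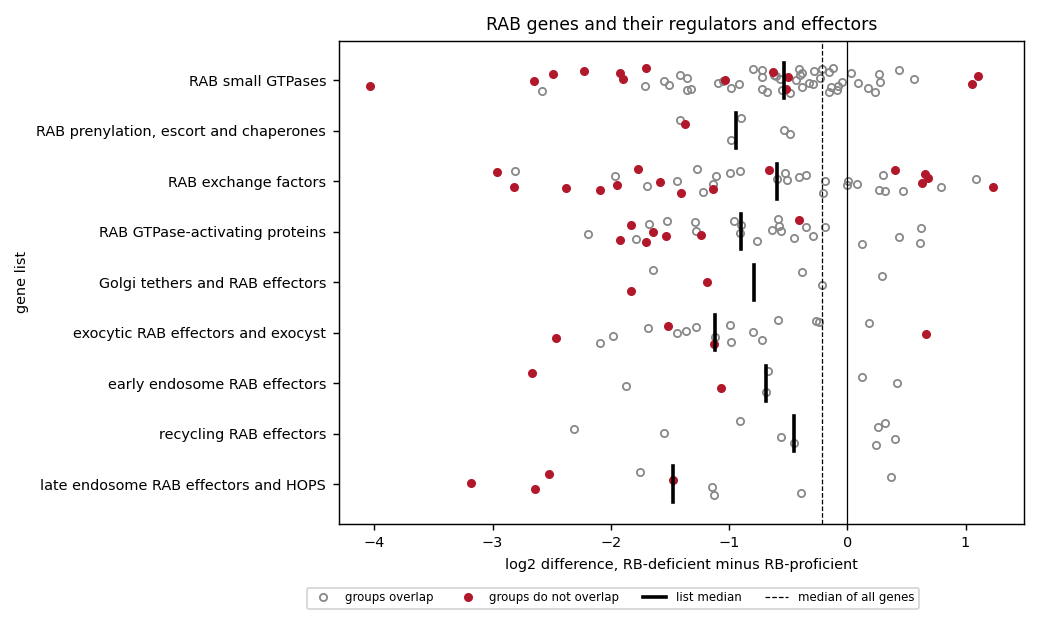
Log2 difference (arrays labelled RB-deficient minus RB-proficient) of each RAB gene and of each gene in the 8 regulator and effector lists. Filled points are genes whose groups do not overlap, black bars are list medians, and the dashed line is the median of all genes at −0.21. All list medians lie below it, with late endosome effectors and HOPS lowest at −1.47.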

How the data were processed

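Total RNA was amplified (WT-Ovation Pico) and biotin-labelled, 1 sample per array, per the labels' protocols. The authors deposited linear intensities made with Affymetrix Expression Console 1.1 per the submitters' processing notes; how they were summarised and normalized is not given in the sources used. Each of the 6 arrays was scaled to the median of the array medians (26.8), a floor of 1 was applied, and values were put on the log2 scale. Detection calls were not used, so no probe set is known to be above background. Names came from the platform annotation, which gave 1 symbol to 19460 of 33297 probe sets, and all 60 members matched RefSeq by gene number. The comparison used lmFit and eBayes of limma 3.58.1 (R 4.3.3, two-sided tests), with Benjamini-Hochberg adjustment over 18417 genes and a threshold of 0.05. The fit was also run on simulated data, which had no floor, unlike the arrays. How often it called changes of the sizes seen here is not given, so nothing is drawn from those runs.

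The members, compartment lists and regulator lists were chosen with earlier results of these data known. Values in all arrays are given for up to 4 members per compartment with the smallest p and for RAB25, RAB11A, RAB11B, RAB5A, RAB5B, RAB5C, RAB7A, RAB27A, RAB27B, RAB3D, RAB1A and RAB6A, and up to 3 genes per regulator list are named. Same-numbered arrays did not deviate together (correlations of −0.12, 0.07 and −0.11), so no pairing was used, and 0 arrays were duplicates. Alternatives were quantile normalization, centring, a filter on the dimmest 25% of genes (49 members passed), a floor or an offset of 16, the mean of probe sets, trend and robust, array weights, the replicate block and single arrays left out. Further alternatives, unscaled values and the arrays labelled RB-deficient 1 and 2 left out, were chosen once the data had been seen. The precision is limited by the number of arrays.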

Additional observations from a re-analysis of the deposited data

How the results depend on the processing

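Of 306 values of group results under 17 alternatives, 268 moved by no more than the set limits, 1.5 times for a count and 1 SD between arrays for a median. That SD is wide: the exocytic median of −0.44 was 0.04 without the array labelled RB-deficient 2 and 0.05 with only the third RB-deficient array, the early secretory one of −0.50 was −0.09 without the former, and the unassigned one of −0.04 was 0.13 with quantile normalization, 0.09 with centring, 0.15 without the array labelled RB-deficient 2 and 0.14 without array 3. None of these medians had a test. Of the 60 members, 31 were lower and 4 higher in every setting with a value, and 2 passed the adjusted threshold in any. Members passing numbered 2 with a floor of 16, 1 with the offset of 16 and 1 with trend and robust, against 0. Regulators and effectors passing numbered 1 with a floor of 16 and 2 with the offset, against 0. With the replicate block, 9 members were lower at an unadjusted p under 0.05 and 0 passed, as without it. Overlap is read from the array values, so the block, trend and robust, and array weights could not change those counts. The block and trend and robust also leave every difference as it was. Such values among the 268 were fixed in advance and say nothing on stability. The block moved the regulators lower at an unadjusted p under 0.05 from 30 to 32 and changed no call at the adjusted threshold. Members higher at an unadjusted p under 0.05 numbered 1 with gene median centring, 1 with a floor of 16 and 1 with only the third RB-deficient array, against 0. Members lower without overlap numbered 28 with only that array (37.6% of all genes) and 17 without scaling, against 11, and higher ones 6 with that array (25.5% of all genes) and 1 without the dimmest genes, against 2. Regulators lower at an unadjusted p under 0.05 numbered 19 with array weights and 8 with only the third RB-deficient array, against 30. Higher ones numbered 1 with centring, 1 without the dimmest genes and 3 with a floor of 16, against 0. With only that array 30 were higher without overlap, against 6, where 25.5% of all genes were. With that array the medians of the early endosome members and of the regulators were −0.10 and −0.21. With single arrays left out, members lower at an unadjusted p under 0.05 ran from 6 to 14, higher ones from 0 to 2, lower without overlap from 11 to 24 and higher from 2 to 4. For regulators these ran from 15 to 51, from 0 to 1, from 32 to 63 and from 6 to 14. Shares of all genes in these settings ran from 5.34% to 15.8%, from 1.34% to 5.34%, from 17.9% to 26.3% and from 8.96% to 15.5%. Shares of all genes without scaling and with array weights are not given here, so the counts under those settings are not read as results. The median of all members ran from −0.72 to −0.28 and that of regulators from −1.22 to −0.66. Fewer samples make separation easier by construction; the cause of the other shifts was not tested. Dim members, close to the floor, are limited by signal over background.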
